A study of Mus musculus with 2 samples.

Results

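The microRNAs Mir290a, Mir291a, Mir292, Mir294 and Mir295 are made from one cluster near 3.219 Mb of mouse chromosome 7 (mm9). The sites described here are the sWGA peaks and control regions whose summit lay between 3.15 and 3.27 Mb of that chromosome. The sites were chosen by summit position, in a window proposed with the lists known, and the lists were selected on tags over background by the peak caller. Numbers of sites and their strengths are therefore descriptions. It took in 6 of 33783 sWGA peaks and 1 of 750 control regions.

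Both libraries were made from the mouse embryonic stem cell line ZHBTc4 F-Oct4, in which Oct4 carries a Flag tag. The parental ZHBTc4 cells are known for carrying disrupted endogenous Oct4 alleles and a tetracycline-repressible Oct4 transgene, so that the Oct4 profiled is a transgene product in a single engineered line. By the sample descriptions, cross-linked chromatin of both groups was first taken down with anti-Flag antibody and eluted with Flag peptide. In the sWGA group the eluate was taken down again with sWGA, a wheat germ lectin that binds N-acetylglucosamine, and released with 0.5 M GlcNAc. The same 0.5 M GlcNAc is listed for the control group. In the control group, by the same descriptions, the second step used no lectin. The labels call that control an input, an IgG step and plain agarose beads, and which it was is not settled here. An input would have had no Flag step. No drug, time point or other genotype is given for either group. Each group was 1 library, so that no value below has a replicate error and no test between the groups is made. After filtering, the sWGA library held 6129874 tags and the control library 78351, which makes 1 control tag weigh as much as 78.2 sWGA tags.

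The cluster is transcribed as a single primary RNA in pluripotent cells and yields microRNAs that are among the most abundant in mouse embryonic stem cells, where they are known for speeding passage from G1 to S phase of the cell cycle. Oct4, Sox2 and Nanog are known to occupy its upstream region. O-linked N-acetylglucosamine is a single sugar that the enzyme Ogt places on serine and threonine of nuclear and cytoplasmic proteins, Oct4 among them. Because the chromatin was cross-linked, another glycosylated protein beside Oct4 could also have bound the lectin.

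All 5 named microRNA genes were found in the RefSeq table of mature microRNAs (GRCm38.p6), which held 17 mature sequences from 9 hairpins of the cluster. For Mir292 it held only the 5′ arm, so the 3′ arm of Mir292 is missing from the sequences and counts below. The sequences below are the 6 mature 3′ arms of the cluster in that table that hold the string AAGUGC, the core of its best known seed, within their first 9 bases. They are shown because they are products of the cluster near which the peaks lie. Capitals mark the seed, bases 2 to 8, and the letters are as RefSeq gives them, 5′ to 3′.
mmu-miR-291a-3p: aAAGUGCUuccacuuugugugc
mmu-miR-294-3p: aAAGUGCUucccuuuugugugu
mmu-miR-295-3p: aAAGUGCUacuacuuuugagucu
mmu-miR-290a-3p: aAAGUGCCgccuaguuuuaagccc
mmu-miR-291b-3p: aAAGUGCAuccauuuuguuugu
mmu-miR-290b-3p: aAGUGCCCccauaguuugagua

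The seed AAGUGCU was shared by 3 mature microRNAs of the cluster, miR-291a-3p, miR-294-3p and miR-295-3p. In the whole table of 1679 mature names 5 carried that seed (0.298%). The others, miR-302b-3p and miR-302d-3p, come from a second cluster known from embryonic stem cells. The table held only the 5′ arm of Mir302a, so its 3′ arm could not be counted. The 3′ arm of Mir290a ended its seed in C and that of Mir291b in A. In miR-290b-3p, from the hairpin on the opposite strand, the string starts at base 1. These are 6 of the 8 mature 3′ arms of the cluster in the table, and 19 of all 1679 mature names held the string within their first 9 bases (1.13%). A pair of further sequences is shown for comparison, one from Mir302b and one from Mir17, a family known for promoting proliferation, in which the same string sits 1 base later.
mmu-miR-302b-3p: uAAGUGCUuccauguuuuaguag
mmu-miR-17-5p: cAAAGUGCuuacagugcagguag

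The 5′ arms formed other groups. The seed CUCAAAC was common to miR-290a-5p, miR-292a-5p and miR-293-5p, and 3 of 1679 mature names in the table carried it, all of them from this cluster. The first is shown as the example.
mmu-miR-290a-5p: aCUCAAACuaugggggcacuuu

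In the RefSeq gene table (GRCm38) the cluster lies with the long noncoding RNA gene D7Ertd143e, which overlaps most of its hairpins. Its nearest protein-coding neighbours are AU018091 on one side and, on the other, Nlrp12, a regulator of inflammatory signalling whose annotated span reaches over the hairpins, and then Myadm, a myeloid-associated membrane protein. That table is on another build than the peaks, so it was used for names and order, and distances are given only to the mark at 3.219 Mb in mm9.

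The 6 sWGA peaks all lay on the low-coordinate side of the cluster, which is its upstream side, and 0 lay over or beyond it. They are called sites 1 to 6 here, counted towards the cluster. Site 1, at chr7:3184304-3184863, held 15 tags, 34.6 kb from the mark. Site 2, at chr7:3193182-3193757, held 29 tags at 25.7 kb. Site 3, at chr7:3194251-3194752, held 12 tags at 24.6 kb. Of these first 3 sites the second held the most tags. Site 4, at chr7:3203699-3204635, held 45 tags at 14.6 kb. Site 5, at chr7:3212155-3212484, held 18 tags at 6.7 kb. Site 6, at chr7:3213421-3214130, held 52 tags at 5.3 kb. Sites 4 and 6 thus held the most tags, 97 of 171 (56.7%), and site 6 was also the nearest to the microRNAs.

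The control library had 1 region in the window, at chr7:3202366-3202756, with 3 tags. It lay between sites 3 and 4, with 942 bp from its edge to that of site 4 and 1.90 kb between the summits.

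**Figure D1:**
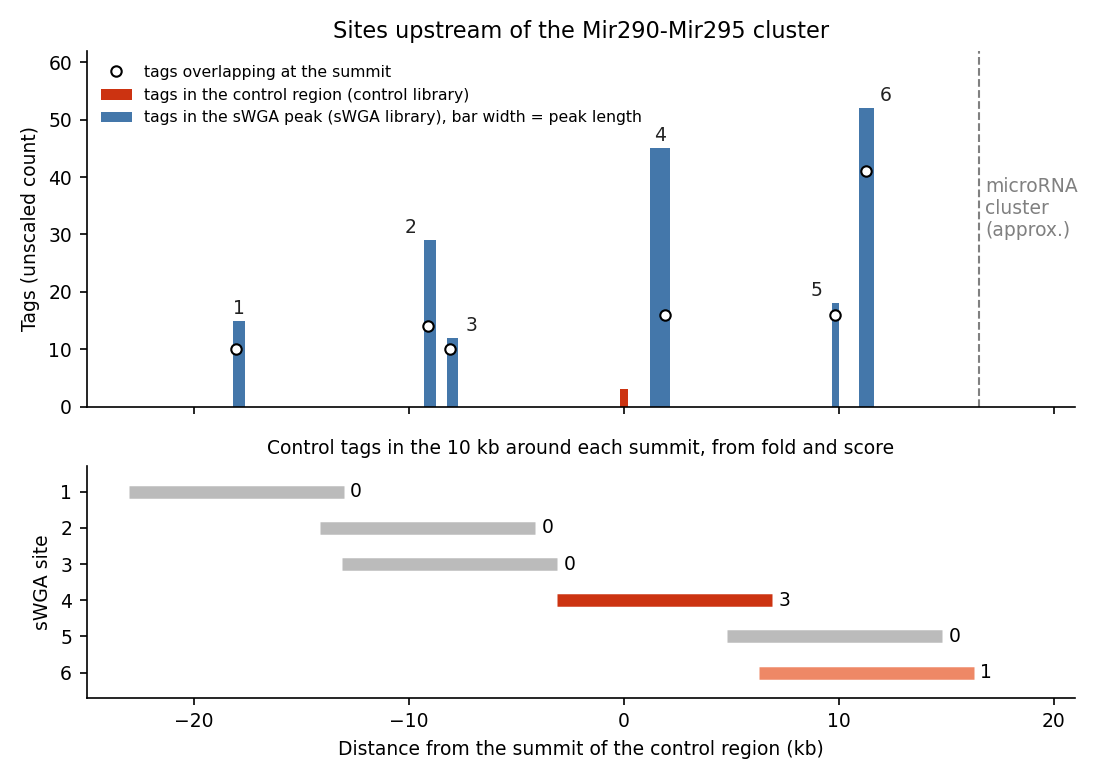
The upper panel plots tags (unscaled counts) against distance in kb from the summit of the control region: blue bars are sites 1 to 6 with their length as width, open circles the tags that overlap at each summit, the red bar the control region, and the dashed line the approximate place of the microRNA cluster. The lower panel shows the 10 kb around each summit with the number of control tags in it; only the windows of site 4 (3 tags) and site 6 (1 tag) hold any.

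The sites stood close together. Sites 2 and 3 were 493 bp apart and sites 5 and 6 were 936 bp apart, edge to edge, each a weaker and a stronger peak. The other gaps were 8318, 8946 and 7519 bp. Merged wherever neighbours were at most 10 kb apart, the sites made 1 group of 29.8 kb. Groups of at least 6 peaks were 78 of 25999 in the whole list (0.3%), 8 of them on chromosome 7. Of those 78 groups, 12 held at least the 171 tags of this one. Another summit within 5 kb was present for 4 of the 6 sites, where 25.9% of all peaks had one.

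The window held 50 peaks per Mb against 12.3 per Mb on the rest of chromosome 7, a ratio of 4.06 (exact Clopper-Pearson 95% interval 1.49 to 8.85, counting error only). That interval treats peaks as independent, which the close pairs here are not. The window was also proposed with the lists known, so the interval is no test of enrichment. When all chromosomes were cut into 21483 tiles of 120 kb, the median tile held 1 peak and 733 tiles held at least 6 (3.41%). The window is dense in peaks, as many other stretches of this width are.

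No listed peak lay at a lower position on chromosome 7 than site 1. Above site 6 there was none for 75.1 kb, past the cluster itself, until a peak of 9 tags at chr7:3289222-3289628 with a score of 58.32, which lay 19.3 kb outside the window. Gaps of this order are common in the list, in which 6831 of the 21483 tiles of 120 kb held no peak. The fewest tags of any listed peak were 9, and more are needed where a control tag lies within 5 kb. The absence of a listed peak over the microRNAs therefore leaves weaker binding there undetectable at this depth. The nearest other control region on the chromosome was at chr7:10996609-10996865, with 3 tags.

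Set beside all sWGA peaks, the sites were above the middle in tags. Their median was 23.5 tags, where the median of all peaks was 11, and all 6 exceeded that. Site 6 held more tags than 98.2% of peaks, site 4 more than 97.3% and site 2 more than 91.8%. Site 3, the weakest, exceeded 51.1%. The median length was 568 bp against 419 bp, and the median deposited fold was 23.62 against 15.75. The deposited fold is the tag height at the summit over the number of tags that the caller expected there.

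Tag density was next set against an even spread of sWGA tags over the genome. Site 6 held 22.3 times the tags expected in its length (exact Poisson 95% interval 16.7 to 29.3). Site 5 held 16.6 times (9.86 to 26.3), site 2 held 15.4 times (10.3 to 22.1) and site 4 held 14.7 times (10.7 to 19.6). Their intervals overlapped, so that no order of density is read among sites 2, 4, 5 and 6 at this depth. Site 1 held 8.17 times (4.57 to 13.5) and site 3 held 7.29 times (3.77 to 12.7), and both of these intervals ended below the lower bound for site 6. These intervals cover counting error only.

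The sites differed in shape. At site 6, 41 of 52 tags overlapped at the summit (78.8%). At site 5, 16 of 18 did (88.9%), over a peak of only 330 bp. Site 4 was the broadest, 937 bp, longer than 98.9% of all peaks, and 16 of its 45 tags overlapped at the summit (35.6%). Sites 4 and 5 thus had summits of equal height although site 4 held more tags. Among 1207 peaks of at least 40 tags whose background could be read, the median share at the summit was 63.4% with quartiles of 50.7% and 74.4%. A share as low as that of site 4 was found in 6.13% of them, and one as high as that of site 6 in 15.8%. At site 2, 14 of 29 tags overlapped (48.3%). Sites 1 and 3 both had 10 at the summit.

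The deposited scores, which put the caller's p-value on a negative log10 scale multiplied by 10, gave another order than the tags. Site 6 scored 325.29, site 2 scored 249.35 and site 5 scored 168.82. Site 1 scored 98.48 and site 3 scored 76.43. Site 4, with more tags than all but site 6, came last at 52.80, just over the caller's cutoff of 50. A score of at least 100 was reached by 3 of the 6 sites, where 33.9% of all peaks reached it.

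Site 4 also scored low among peaks of its size. Of 927 peaks with at least 45 tags, 2 scored 52.80 or less, site 4 being one of them, and the median of these peaks was 502.2. Its fold of 4.40 was also the lowest of the 6 sites, the others having 19.68 (sites 1 and 3), 27.55, 31.49 and 33.81, and 0.0237% of all peaks had a lower one. The deposited FDR, a percent that rises with the score in this list, was 2.24% for site 4 and 56.94% for site 6. A ceiling on the FDR would thus keep the first and drop the second. Control scores come from tags scaled up, and the control region here reached 3106.13, above all 6 sites. The FDR grew as fewer sWGA peaks scored as high, and it is not read as the reliability of a site.

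**Figure D2:**
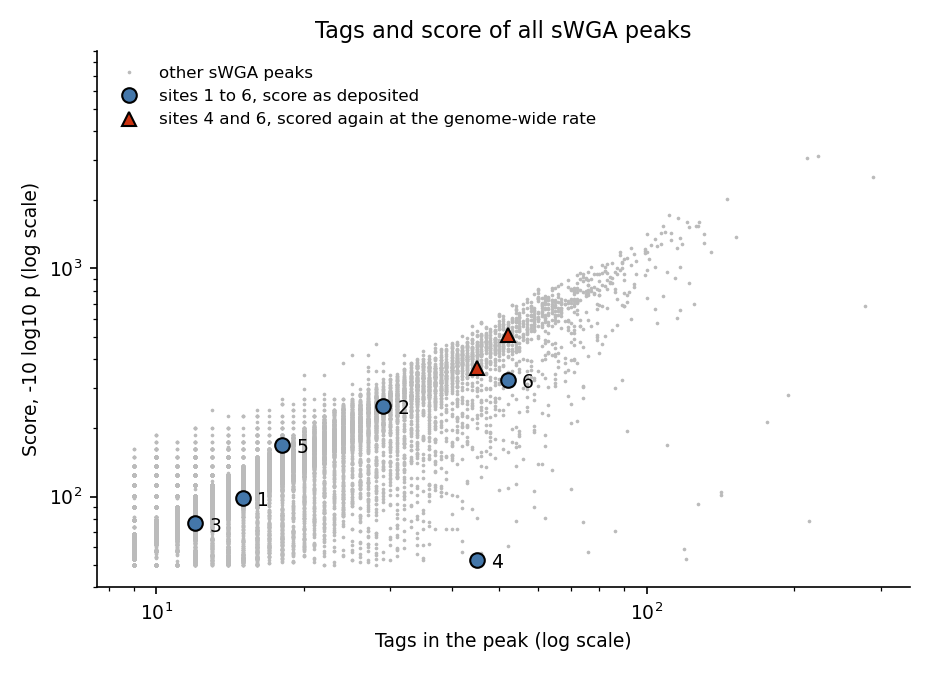
Tags in the peak (horizontal, log scale) against the score (vertical, log scale) for all sWGA peaks in grey and sites 1 to 6 as blue circles; red triangles show sites 4 and 6 scored again at the genome-wide rate. Site 4 lies at 45 tags and 52.80, far below peaks of like size, and its triangle, at 366.27, lies among them.

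The background that the caller used at each site could be read back from the fold and the score together. The caller expects the larger of the genome-wide mean, 0.508 tags per fragment of 155 bp, and the local control tags in 10 kb or 1 kb scaled up. A single control tag in 10 kb sets 1.21 tags, 3 such tags set 3.64, and 1 control tag in 1 kb sets 12.1. For each site exactly 1 of these backgrounds returned both the deposited fold as whole tags and the deposited score. The largest difference from a deposited score was 0.0046.

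At sites 1, 2, 3 and 5 the background was the genome-wide mean, with 0 control tags in the 10 kb around the summit. An even spread puts only 0.419 control tags in 10 kb, and a count of 0, taken to allow 3 counts (a one-sided limit, unlike the two-sided intervals given elsewhere), allows up to 7.16 times that mean, so 0 says little about the control at these sites. At site 6 there was 1 control tag and at site 4 there were 3. A local control background was thus used at 2 of the 6 sites, where 8.79% of all peaks had one. Exactly 3 control tags in 10 kb were found at 31 of the 29705 peaks whose background could be read (0.104%). Places that failed the cutoff with 3 control tags are not listed, so this share leaves them out. Those 31 peaks held 24 to 91 tags, with a median of 51, and of them site 4 had the lowest score.

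These windows also placed the control tags, taking each to be centred on the summit. The 3 tags beside site 4 had to lie between 3199384 and 3207289, since the windows of sites 3 and 5 on either side held none. The control region, with its 3 tags, lies inside that stretch of 7.91 kb, and the tags counted at site 4 are as many as those listed for the region. The 1 tag in the window of site 6 had to lie between 3217291 and 3218742, beyond the reach of site 5. That stretch of 1.45 kb lies on the cluster side of site 6 and ends just short of the mark at 3.219 Mb.

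Scored again at the genome-wide rate, site 4 rose from 52.80 to 366.27 and site 6 from 325.29 to 511.79. The order by score was then sites 6, 4, 2, 5, 1 and 3, which is also their order by tags. Site 4 then exceeded 96.2% of all peaks scored in the same way, where its deposited score exceeded 1.03%. The 3 control tags had raised the number of tags expected in site 4 from 3.07 to 22.0 (0 and 3 control tags), so that its 45 tags were 14.7 times one expectation and 2.05 times the other.

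How much control background each site could bear was computed the same way. With 1 control tag in 10 kb, 4 of the 6 sites would still pass the cutoff, where 38.5% of all peaks would. Site 1 would fall to 48.31 and site 3 to 36.37. With 3 control tags only sites 4 and 6 would pass, at 52.80 and 119.55, where 6.7% of all peaks would. With 4 control tags site 4 would fall to 25.79 and site 6 alone would pass, at 76.77, and with 5 it would fall to 48.75. A control tag within 500 bp of the summit would remove every one of the 6, the highest remaining score being 1.86. For sites 1 and 3, and for site 4 as it stood, 1 more control tag in 10 kb would thus have ended the listing.

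**Figure D3:**
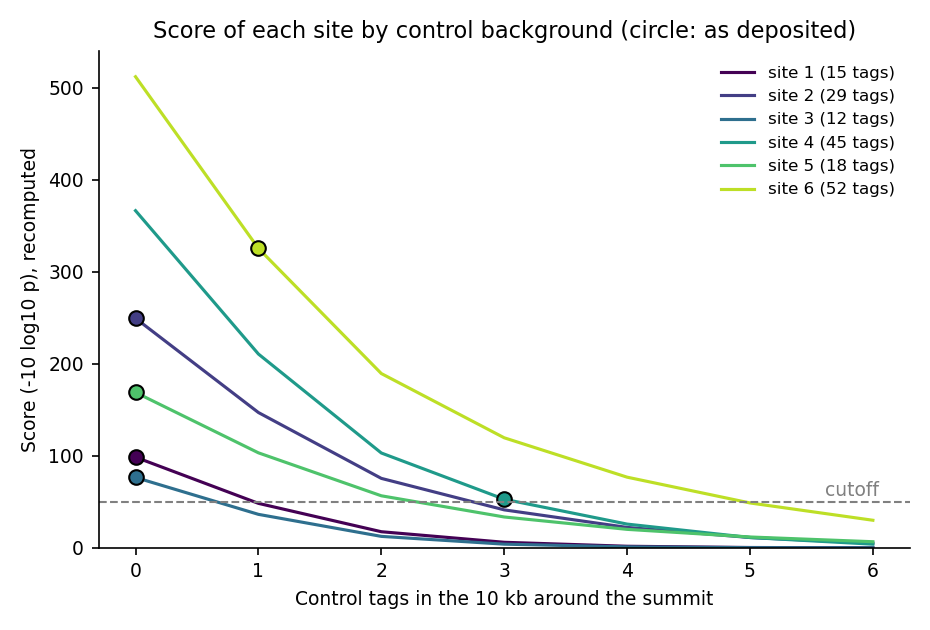
Score recomputed for sites 1 to 6 (lines) against the number of control tags in the 10 kb around the summit; filled circles mark the number and score as deposited and the dashed line the cutoff of 50. Site 4 sits on the cutoff with 3 control tags, while sites 1 and 3 would drop under it with 1.

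The control region itself had a deposited score of 3106.13, with its tags scaled up by the caller, and a fold of 1.18. That fold sets the control tags unscaled over an expectation at the sWGA depth, so it is no depth-matched ratio. In that list the sWGA library is the background, so a low fold means many sWGA tags nearby. Among the 575 control regions of 3 tags the median fold was 3.94, and 54 (9.39%) had a fold of 1.18 or less. The fold fits 164 sWGA tags in the 10 kb around the region if its 3 tags overlapped at the summit, and 109 if only 2 did, and no other whole number with either window. The region was 391 bp long, and 3 fragments of 155 bp that share a base span less than that. All 3 could thus overlap only if the caller set the region's edges beyond the fragment ends, which was not checked. Of the 3-tag regions of any length scored at the genome-wide mean, 181 had all 3 overlapping and 52 had 2.

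An even spread would put 32.8 sWGA tags in 10 kb. The region was thus at 3.33 times the sWGA mean (2.73 to 4.01) with 2 tags overlapping. With all 3 overlapping it would be at 5.0 times (4.27 to 5.83). The only listed peak with its summit in that stretch, site 4, held 45 tags. This leaves 64 sWGA tags outside any listed peak, or 119 with all 3 overlapping. The 3 control tags were 7.16 times the control mean for 10 kb (1.48 to 20.9). Relative to the depth of each library, the intervals of control and sWGA tags around the region overlapped. The region was listed because its control count was high, so that its ratio is a description and no test.

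One other control region of the whole list had an sWGA peak within 1 kb, so that these are 2 of 750 (0.267%). Control tags raise the caller's expectation, so this share counts only peaks that passed in spite of them. It lay at chr1:179911755-179912122 and also held 3 tags. Its neighbour, a peak at chr1:179912750-179913738, held 54 tags over 989 bp, 627 bp away. There too the caller's background was 3 control tags in 10 kb. The score of that peak was 78.41, against 463.91 at the genome-wide rate, and its fold was 8.52. It was longer than site 4 and had a higher share of tags at the summit, 31 of 54 (57.4%). Both broad peaks carried a score far below that of other peaks with as many tags, each beside 3 control tags. Both were picked for a control region within 1 kb, which puts its tags in the 10 kb window. The lower scores thus follow from that choice, and the likeness is no second finding.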

How the data were processed

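A region list of the sWGA library and one of the control library were used. Per the file headers, the authors called regions with MACS 1.4.1 (p cutoff 1e-05, fragments of 155 bp, genome of 1870 Mb). Local control tags were counted in windows of 1 kb and 10 kb and scaled up to the sWGA depth. The control list lacks header lines and, from its name, comes from that run with the libraries exchanged. The build is mm9, per the submitters' processing notes; the aligner is not given in the sources used here. Deposited tag counts are unscaled filtered tags, and 36.7% of sWGA tags and 21.4% of control tags passed the filter. The deposited score is the negative log10 of p multiplied by 10, the deposited fold is a ratio of summit height to expectation, and the deposited FDR is a percent for the sWGA list. Scores and folds are the authors' unless said to be recomputed.

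Scores were recomputed from the Poisson upper tail above a peak's tag number. Each peak's background was the number of control tags that returned both fold (whole within 0.02 tags, or within rounding of the fold) and score (within 0.02). This gave 1 answer for 87.9% of peaks. On data simulated with the same formulas, all 58 peaks made with 3 control tags were recovered. That shows only that the numbers of control tags can be told apart, and cannot show that the formulas are the caller's. Separately, a peak was counted as having a local background when its fold was not whole within 0.01 tags at the genome-wide mean. Computation used scipy 1.17.1 with numpy 2.4.6 and pandas 2.3.3 under Python 3.11.15, and plots matplotlib 3.10.9. Every site in the window was named, with the nearest sites outside and the other control region within 1 kb of a peak. The sites, lists and alternatives were chosen with earlier results of these data known. Sequences of the peaks were not used here, since no mm9 genome was at hand.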

Additional observations from a re-analysis of the deposited data

How the results depend on the processing

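No paired analysis was possible because there was only 1 library on each side, which also leaves no replicate to omit. Of 28 alternative values, 17 stayed close to the value reported and 11 moved. With a score of at least 100 the peaks in the window went from 6 to 3, their tags from 171 to 99 and the peaks with a local control background from 2 to 1. With an FDR of at most 5% these were 2 peaks, 57 tags and 1 peak. That ceiling kept the lowest-scoring sites, 3 and 4, since the FDR rises with the score here, so it is no stricter choice. A fold of at least 10 left 1 peak with a local background, since it drops site 4. Requiring at least 4 tags left 0 control regions. The number of control regions with an sWGA peak beside them fell from 1 to 0 with a gap of at most 500 bp, with summits at most 1 kb apart, and with a peak score of at least 100. The density ratio of 4.06 ran from 2.72 to 5.12 over 5 alternatives. The lowest rested on 2 window peaks (FDR of at most 5%) and the highest on 3 (score of at least 100). Both were counted as close, but no interval was computed for either, so they say little about stability. The control library limits the site-level reading: 1 of its tags in 10 kb takes site 1 from 98.48 to 48.31, and 0.419 are expected in 10 kb.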
